A study of Mus musculus with 12 samples.

Results

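All 12 arrays of the series, each holding RNA of mouse uterus, were put in order by a score of 5 genes chosen as estrogen-induced. Each array is called a uterus below. The 6 highest uteri were set against the 6 lowest, whatever their genotype. The score of an array was the mean of the log2 values of Ltf, Muc1, Sprr2f, Padi1 and Greb1, each by its brightest probe and centred on its mean over the 12 arrays. The members of the high and low group, 6 of 12 arrays each, were thus selected on the measured values of these 5 genes. Differences between the groups are therefore given as descriptions with no test.

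The uteri came from female C57BL/6 mice of 2 months, with 3 arrays in each of 4 groups: control (labelled wild type), Cdh1 cKO, Trp53 cKO and double cKO, in which both genes were targeted. Cdh1 encodes E-cadherin and Trp53 the tumour suppressor p53. The sources used here do not give the recombinase or its promoter, the deleted exons, any pooling, the litters or the stage of the estrous cycle, so the part of cycle stage in any difference below was not tested. In the uteri labelled Cdh1 cKO the Cdh1 signal was 9.58 to 9.98 on the log2 scale, within the 9.41 to 10.08 of control, and array names below follow the labels.

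In the rodent uterus, ovarian estrogen acts through the estrogen receptor of epithelium and stroma. It makes the luminal epithelium proliferate and secrete, and progesterone opposes this and turns on its own genes, among them Ihh in the epithelium and Hoxa10 in the stroma. Ltf encodes lactoferrin, an iron-binding protein of uterine fluid, and Muc1 a membrane mucin of the luminal surface. Sprr2f encodes a small proline-rich protein of cornified envelopes, Padi1 an enzyme that converts arginine to citrulline in proteins, and Greb1 a cofactor of the estrogen receptor first found in breast cancer cells. In whole tissue, fewer cells of a type and less RNA per cell cannot be told apart.

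The promoters of score genes are shown because estrogen receptors bind estrogen response elements. The core hexamer searched was AGGTCA, which reads as TGACCT on the other strand. The full form searched was GGTCA and TGACC with any 3 bases between them, on both strands, and it can overlap the hexamer. RefSeq windows on GRCm38.p6, from 250 bases before to 50 after a gene's start, held the hexamer on either strand in 16.3% of 32851 windows and the full form in 0.07%. Of 6 windows of the 5 score genes, 3 held a hexamer and 0 the full form, and those of Muc1 and Padi1 held neither. Of the 19 genes without overlap and with a difference of at least 1, only 13 had windows in the reference. Of their 17 windows, 3 (17.6%) held a hexamer and 0 the full form. The sequences read 5′ to 3′ on the gene's strand, with the hexamer in capitals. Its first base lies 46 bases before the start in Ltf (chr9:111019042-111019341, plus strand), 219 in Sprr2f (chr3:92364937-92365236, plus strand) and 88 in 1 of 2 Greb1 windows (chr12:16800837-16801136, minus strand). Lcn2 (chr2:32387690-32387989, minus strand), the gene with the largest difference among those whose groups did not overlap, has neither motif in its window and is shown beside them.
Ltf: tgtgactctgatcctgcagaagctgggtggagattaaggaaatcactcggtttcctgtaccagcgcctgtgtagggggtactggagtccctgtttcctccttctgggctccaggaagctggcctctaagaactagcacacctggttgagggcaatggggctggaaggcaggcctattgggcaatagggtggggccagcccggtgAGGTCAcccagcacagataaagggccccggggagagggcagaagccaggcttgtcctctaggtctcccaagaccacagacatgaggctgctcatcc
Sprr2f: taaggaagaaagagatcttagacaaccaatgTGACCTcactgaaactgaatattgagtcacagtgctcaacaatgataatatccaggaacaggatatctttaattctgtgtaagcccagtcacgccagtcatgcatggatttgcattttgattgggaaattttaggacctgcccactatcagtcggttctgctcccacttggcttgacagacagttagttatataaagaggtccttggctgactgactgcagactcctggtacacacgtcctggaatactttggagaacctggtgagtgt
Greb1: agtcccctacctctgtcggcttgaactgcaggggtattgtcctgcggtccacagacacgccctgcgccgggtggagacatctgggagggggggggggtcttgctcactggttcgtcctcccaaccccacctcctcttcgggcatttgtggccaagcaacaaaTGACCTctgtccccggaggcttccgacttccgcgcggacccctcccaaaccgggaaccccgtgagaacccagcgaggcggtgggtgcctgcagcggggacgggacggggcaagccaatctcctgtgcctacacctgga
Lcn2: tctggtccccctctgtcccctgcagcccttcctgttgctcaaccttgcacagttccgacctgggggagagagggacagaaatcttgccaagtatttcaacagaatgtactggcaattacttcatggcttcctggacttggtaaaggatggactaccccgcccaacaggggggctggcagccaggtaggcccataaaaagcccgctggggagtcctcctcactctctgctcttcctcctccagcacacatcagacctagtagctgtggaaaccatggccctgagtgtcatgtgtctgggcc
A match describes letters in a window and shows no binding.

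From highest to lowest, the high group held Cdh1 cKO replicate 3 with a score of 1.39, double cKO replicate 1 with 1.27, double cKO replicate 3 with 0.53, Trp53 cKO replicate 2 with 0.44, control replicate 3 with 0.41 and Cdh1 cKO replicate 2 with 0.16. The low group held double cKO replicate 2 with 0.14, Trp53 cKO replicate 1 with -0.62, Trp53 cKO replicate 3 with -0.68, Cdh1 cKO replicate 1 with -0.69, control replicate 1 with -0.96 and control replicate 2 with -1.39. Every genotype had uteri in both groups. Only 0.0147 separated the arrays on either side of the boundary, Cdh1 cKO replicate 2 and double cKO replicate 2, whereas the widest gap, 0.764, lay just below double cKO replicate 2. The 2 boundary arrays changed places when Ltf, Sprr2f or Greb1 was left out of the score or all detected probes of a score gene were averaged. A comparison of the 5 highest with the 5 lowest uteri, chosen after seeing these scores, is therefore given beside the groups.

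By genotype the score was -0.65 ± 0.94 (SD, n = 3) in control uteri and 0.65 ± 0.57 in double cKO uteri, with 0.29 ± 1.05 for Cdh1 cKO and -0.29 ± 0.63 for Trp53 cKO. The scores of every pair of genotypes overlapped. The arrays differed little in quality measures: 44.3% to 47.5% of the 45281 probes were detected (p below 0.05) in the high group and 45.8% to 47.9% in the low group. Median intensity was 106 to 116 and 109 to 119, and the arrays of both had medians of 41 to 43 beads per probe. Of 12194 genes tested, 46.1% were higher in the high group, and the median difference over all genes was -0.02 on the log2 scale, with the 5th to 95th percentile from -0.50 to 0.61.

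**Figure D1:**
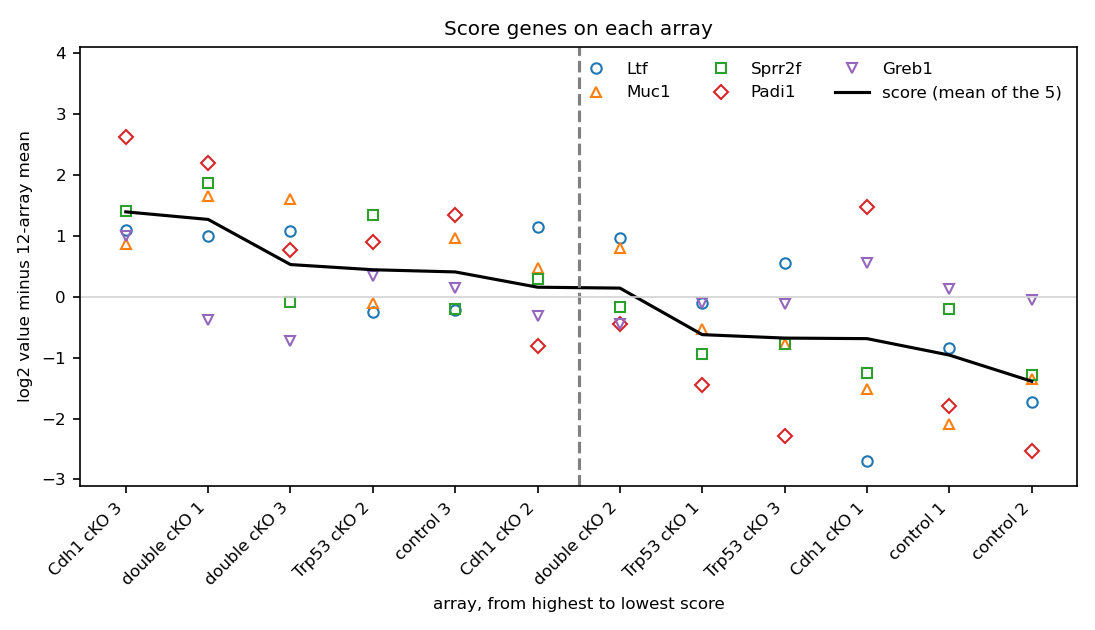
Log2 value minus the 12-array mean of the 5 score genes (symbols) and their mean, the score (line), on each array from highest to lowest score, with the boundary between the groups dashed. Greb1 differs by 0.01 between the groups, and the 2 arrays at the boundary, at 0.16 and 0.14, lie almost level.

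The score genes did not all move together. Muc1 was 12.10, 12.90, 12.84, 11.13, 12.20 and 11.71 in the high group, in order of score, and 12.03, 10.72, 10.47, 9.72, 9.15 and 9.89 in the low group, means of 12.15 ± 0.68 and 10.33 ± 1.003 (SD, n = 6). Only double cKO replicate 2 in the low group reached the level of the high group. The 3 other Muc1 probes gave differences of 1.77, 1.83 and 1.95, beside 1.82 for the brightest.

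Padi1 was 14.62, 14.21, 12.77, 12.90, 13.35 and 11.20 in the high group and 11.56, 10.56, 9.72, 13.47, 10.21 and 9.47 in the low group. Its difference of 2.34 was the widest of the 5, yet Cdh1 cKO replicate 1 was high for Padi1 and lowest of all for Ltf. Sprr2f averaged 12.48 ± 0.87 against 10.94 ± 0.49, and only double cKO replicate 2, at 11.54, exceeded the lowest array of the high group, control replicate 3 at 11.51.

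Ltf averaged 14.31 ± 0.68 in the high group and 13.03 ± 1.40 in the low group, with 10.97 in Cdh1 cKO replicate 1 and 11.93 in control replicate 2 as its lowest values. The highest value on any array was 15.003 to 15.02, so the brightest Ltf probe lay near the top of the scale, and its dimmer probe differed by 2.52. Greb1 differed by 0.01, with 9.34 ± 0.61 and 9.33 ± 0.33, and by -0.11 in its other probe. The highest-scoring minus the lowest-scoring uterus of each genotype gave 0.29 for Greb1 on average, above 0 in 4 of 4. Greb1 is part of the score that picked these uteri, so this sign is no separate support. Greb1 was highest in Cdh1 cKO replicate 3 (10.32) and lowest in double cKO replicate 3 (8.61), both in the high group. The score is thus carried by Ltf, Muc1, Sprr2f and Padi1, and the groups overlapped for each of the 5 genes.

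Labelled genotype is independent of the rule and could be tested. A limma model with a term per genotype, adjusted by the Benjamini-Hochberg method over 12194 genes, called 153 genes (1.25%) for any difference between genotypes at an adjusted p below 0.05. None of the 5 score genes was called, with limma adjusted p of 0.676 for Ltf, 0.462 for Muc1, 0.889 for Sprr2f, 0.690 for Padi1 and 0.429 for Greb1, and each of these also had an unadjusted p above 0.05. In double cKO against control, Muc1 differed by 2.18 ± 0.75 (SE) and Ltf by 1.94 ± 0.84 (limma adjusted p = 0.161 and 0.268). Ltf was 14.66, 14.63 and 14.75 in double cKO and 12.83, 11.93 and 13.45 in control. Without Cdh1 cKO replicate 1, Ltf passed (limma adjusted p = 0.0483, over a range of 0.0483 to 0.942 among alternatives).

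Among all genes, 16 (0.131%) were higher in the high group with no overlap of the groups and a difference of at least 1, and 3 (0.0246%) were lower in the same way. Without the minimum size the groups did not overlap for 54 (0.443%) and 43 (0.353%). Each of the 16 and 3 is shown in the plot of genes by array, and they are described by function below.

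**Figure D2:**
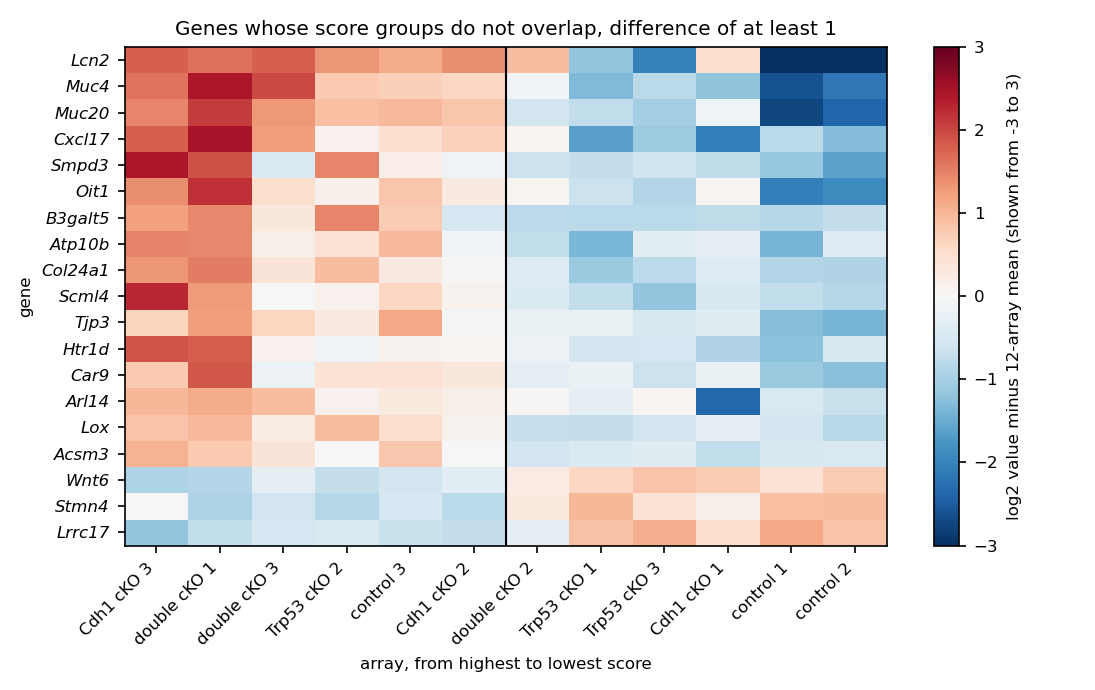
Log2 value minus the 12-array mean of the 19 genes whose groups did not overlap with a difference of at least 1, on arrays from highest to lowest score, the groups divided by a black line. Lcn2, Muc4 and Muc20 span the widest range, and their lowest values lie on control replicates 1 and 2.

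Secreted defence and mucin genes led. Lcn2 encodes lipocalin 2, which binds bacterial iron carriers. It was 14.99, 14.84, 14.97, 14.51, 14.29 and 14.57 in the high group and 14.11, 12.004, 11.16, 13.66, 9.71 and 9.37 in the low group, a difference of 3.02. The high group was tight and near the top of the scale, while the low group ran from 9.37 in control replicate 2 to 14.11 in double cKO replicate 2.

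The membrane mucin gene Muc4 was 8.94, 9.72, 9.28, 8.09, 8.02 and 7.92 against 7.23, 5.99, 6.504, 6.10, 4.69 and 5.17, a difference of 2.72, with 2.69 in its other probe. Muc20, another membrane mucin gene, was 9.28, 9.91, 9.11, 8.72, 8.81 and 8.65 against 7.27, 7.09, 6.81, 7.69, 5.09 and 5.45, a difference of 2.51. For both, control replicates 1 and 2 were lowest. Cxcl17, a chemokine gene of mucosal epithelia, was 11.59, 12.27, 11.03, 9.91, 10.27 and 10.49 against 9.85, 8.17, 8.71, 7.73, 8.98 and 8.50, a difference of 2.27, with 2.18 in its other probe. Here the groups nearly touched, at 9.91 and 9.85.

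Among epithelial genes, Tjp3, which encodes the tight junction protein ZO-3, was 8.92, 9.50, 8.91, 8.52, 9.41 and 8.21 against 8.06, 8.04, 7.76, 7.90, 6.97 and 6.85. The difference was 1.31, with 1.44 in its other probe. B3galt5, a galactosyltransferase gene of glycan synthesis, was detected on 6 of 6 high arrays and 0 of 6 low arrays and was at least 2.83-fold higher in the high group, the level of the low group being set at the lowest detected signal of each array. Its high values ran from 5.05 to 7.03. The lipid flippase gene Atp10b differed by 1.48 (0.97 in its other probe), and Smpd3, a neutral sphingomyelinase gene, by 1.81. Oit1 differed by 1.78, Scml4 by 1.46 and the serotonin receptor gene Htr1d by 1.30.

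Of matrix genes, Lox, which encodes the lysyl oxidase that crosslinks collagen and elastin, was 12.19, 12.31, 11.56, 12.27, 11.86 and 11.44 against 10.65, 10.61, 10.76, 11.09, 10.78 and 10.50, a difference of 1.21. Both groups were narrow for this gene. The fibrillar collagen gene Col24a1 differed by 1.48, with 1.38 and 0.51 in its other probes. The remaining 3 of the 16, outside the rule for named genes and listed to complete the count, were the carbonic anhydrase gene Car9 at 1.22, the small GTPase gene Arl14 at 1.21 and the acyl-CoA synthetase gene Acsm3 at 1.02.

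The 3 genes lower in the high group were Lrrc17, Stmn4 and Wnt6. Lrrc17, a leucine-rich repeat gene, was 7.55, 7.98, 8.20, 8.27, 8.04 and 8.002 in the high group and 8.44, 9.60, 9.80, 9.23, 9.88 and 9.56 in the low group, a difference of -1.41. Wnt6, which encodes a Wnt ligand, was 4.40, 4.44, 5.04, 4.59, 4.76 and 4.97 against 5.56, 5.94, 6.17, 6.07, 5.74 and 6.07, a difference of -1.23 with -1.34 in its other probe, and was detected on 2 of 6 high arrays. Stmn4, of the microtubule-binding stathmins, differed by -1.23, with -1.09 in its other probe. Among the low-scoring uteri, double cKO replicate 2 lay closest to the high group for Lrrc17 and Wnt6, and Cdh1 cKO replicate 1 for Stmn4.

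Smaller differences with no overlap were seen in Tshz3, a zinc finger gene, at -0.89, Tmem121 at -0.90, Iqsec3 at -0.82, She at -0.68 and the folate carrier gene Slc19a1 at -0.68. Rab34, a GTPase gene, differed by -0.68 with -0.61 and -0.52 in its other probes. Other probes did not bear out all of these. Smg6, a gene of nonsense-mediated decay, had -0.91, -0.84 and 0.02 in its 3 probes, the endonuclease gene Mus81 -0.80 and -0.03, and Irak1bp1 -0.72 and -0.31.

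With the 2 boundary arrays set aside, 90 genes (0.738%) were higher and 68 (0.558%) lower in the 5 highest uteri with no overlap and a difference of at least 1, score genes included. Without the minimum size these were 258 (2.12%) and 303 (2.48%). All of the 16 and 3 genes above were among them. Leaving out arrays cannot make separate groups overlap, so this is no sign of stability. The largest difference was in Arg1, which encodes the arginase of the urea cycle and of myeloid cells. Arg1 was 13.44, 13.64, 11.22, 8.72 and 9.68 in the 5 highest uteri and 6.37, 5.90, 7.92, 5.53 and 5.68 in the 5 lowest, a difference of 5.06 with 5.08 in its other probe. The boundary arrays had 8.55 (Cdh1 cKO replicate 2) and 11.41 (double cKO replicate 2), so that Arg1 ordered these 2 arrays the other way round.

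Next in size were Stk32a at 3.57, with 0.63 in its other probe, Lcn2 at 3.54 and the ubiquitin ligase gene Rnf186 at 3.48. Sprr1a, a cornified envelope gene, was 10.26, 10.19, 8.59, 7.39 and 7.20 against 5.72, 5.36, 5.78, 4.89 and 4.66, a difference of 3.44. Sprr2e, of the family of the score gene Sprr2f, was 8.91, 9.59, 9.40, 7.72 and 6.09 against 5.49, 5.20, 4.59, 4.63 and 5.02, a difference of 3.36. Both were high in double cKO replicate 2 (8.04 and 9.12) and near the background in Cdh1 cKO replicate 2 (4.95 and 4.84). Sfn, which encodes the epithelial 14-3-3 sigma protein, differed by 2.77, the prolyl hydroxylase gene Egln3 by 2.79 (1.25 in its other probe), the tetraspanin gene Tspan1 by 2.78 and the adhesion gene Ceacam2 by 2.66.

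Genes lower in the 5 highest uteri were led by Gstm7, a glutathione transferase gene, at 6.12, 6.46, 6.52, 6.83 and 8.26 against 10.33, 11.69, 9.57, 10.63 and 10.82, a difference of -3.77. Ihh, which encodes Indian hedgehog, was not detected on any of the 5 highest arrays, at 4.66, 4.59, 4.39, 4.68 and 4.49, and was 6.33, 7.65, 4.81, 8.01 and 8.08 in the 5 lowest, at least 4.21-fold higher there. Its low value in Cdh1 cKO replicate 1 lay near the background, its boundary arrays had 7.43 (Cdh1 cKO replicate 2) and 4.80 (double cKO replicate 2), and its dimmer probe differed by -0.57. Ptch1, the hedgehog receptor gene and a target of the pathway, was 6.12, 6.90, 6.87, 6.96 and 7.44 against 8.55, 9.14, 7.06, 9.13 and 8.84. It overlapped through Cdh1 cKO replicate 1 alone.

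Other genes lower in the 5 highest uteri included Pkdcc, a secreted kinase gene, at -2.52 (-2.31 in its other probe), Wfdc1 at -1.90 (-1.98 and -1.97), Smim41 at -2.03 (-1.58), the keratin gene Krt23 at -2.39, Cd83, an immune cell surface gene, at -2.26 and the monoamine oxidase gene Maob at -2.17. The sulfotransferase gene Sult1d1 differed by -2.57, with 0.16 in its dim other probe. Rdh9, a retinol dehydrogenase gene, differed by -2.08, the ferritin receptor gene Scara5 by -1.94 and Stc1, which encodes stanniocalcin, by -1.90.

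**Figure D3:**
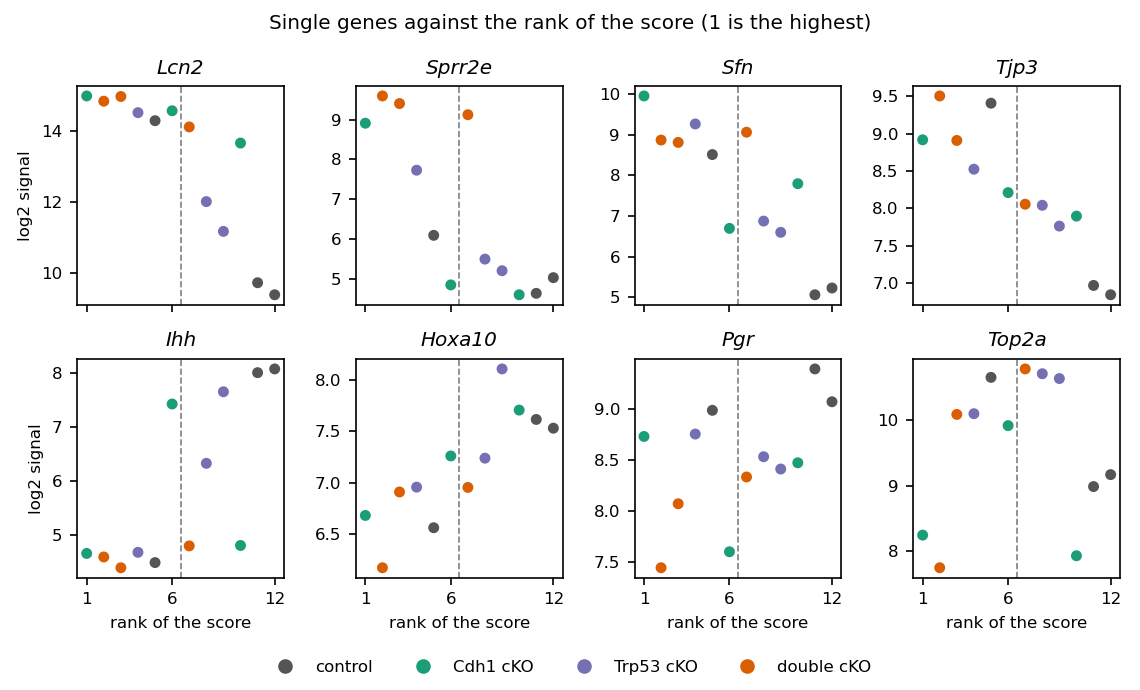
Log2 signal of 8 genes against the rank of the score (1 is the highest), coloured by genotype, with the boundary between the groups dashed. Lcn2 and Tjp3 are higher on the left of the line, Sprr2e, Sfn, Ihh and Hoxa10 are split apart from the boundary arrays, and Pgr and Top2a overlap.

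The other genes of the response were read from 30 lists, with 528 of 717 entries tested. They were written from general knowledge of the uterus, but with earlier results of these data known. Of 31 estrogen-induced genes other than the score genes, 23 were above 0 in the high group, with a median difference of 0.54 against -0.02 over all genes. Leaving out control replicate 1 lowered this median to 0.27, and leaving out Cdh1 cKO replicate 1 raised it to 0.98. Of the 31 genes, 12 differed by at least 1 (2.01% of all genes did) and 1 by -1 or less (0.902%). Lcn2 and Cxcl17, 2 of the 31, had no overlap (0.443% of all genes, higher). The list is not separate from the score, as it holds relatives of Sprr2f (Sprr2a1, Sprr2b, Sprr2d, Sprr2e, Sprr2g, Sprr1a) and of Padi1 (Padi2, Padi4). All of these relatives were above 0, and Sprr2b, Sprr2d, Sprr2e, Sprr1a and Padi2 were among the 12. Sprr2d, a cornified envelope gene, differed by 3.39 and Clca1, a gene of goblet cell secretion, by 3.03, both with overlapping groups. Sprr2d was 12.69, 12.89, 8.95, 8.55, 6.45 and 9.63 against 8.32, 9.003, 5.75, 5.63, 5.18 and 4.93. Padi2, a relative of Padi1, differed by 1.98.

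Other estrogen-regulated genes overlapped. Igf1, a growth factor gene of the stroma, differed by -0.22, the estrogen receptor gene Esr1 by -0.19, the progesterone receptor gene Pgr by -0.44 and the cyclin gene Ccnd1 by -0.09, all with overlapping groups. Cxcl15, a gland gene, went the other way at -2.91, with 4.38, 6.34, 4.75, 4.95, 4.79 and 6.11 in the high group and 5.71, 9.04, 9.80, 4.40, 9.99 and 9.85 in the low group. Hsd17b2, which encodes the enzyme that turns estradiol into estrone, differed by 1.56 with overlap and was detected on 1 of the 5 lowest arrays. Since the differences of Greb1, Igf1 and Pgr were 0.01, -0.22 and -0.44, the groups are described here as high and low in Ltf, Muc1, Sprr2f and Padi1, and not in all estrogen-regulated genes.

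Of 18 progesterone-responsive genes, 3 were above 0, with a median of -0.64, and 0 had no overlap between the groups. Without the boundary arrays Ihh, Hoxa10 and Hoxa11 did not overlap, where 2.48% of all genes were lower in this way. Hoxa10, a homeobox gene of the uterine stroma, was 6.68, 6.18, 6.91, 6.96 and 6.56 in the 5 highest uteri and 7.24, 8.10, 7.70, 7.61 and 7.53 in the 5 lowest, a difference of -0.98. Hoxa11, its neighbour, differed by -0.995 and the stromal gene Hand2 by -0.85. Lrp2 differed by -1.13 and Hsd11b2 by -1.41 between the groups of 6, with overlap.

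Proliferation genes did not separate the groups. Their median over 33 genes was -0.22 (0.06 without double cKO replicate 1), with 8 above 0, and the list's array medians were -1.38 to 0.71 in the high group and -0.82 to 0.81 in the low group. The 2 highest-scoring uteri had the lowest proliferation medians, -0.94 and -1.38, with Top2a, which encodes a topoisomerase of dividing cells, at 8.24 and 7.74, against 9.92 to 10.66 in the other 4 of the high group. Cdh1 cKO replicate 1 and control replicates 1 and 2 were also low in Top2a, at 7.93, 8.99 and 9.17. Of 18 ribosome biogenesis genes, 0 were above 0, with a median of -0.44. Of these, Myc at -0.56 and Pes1 at -0.51 had no overlap (0.353% of all genes, lower).

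**Figure D4:**
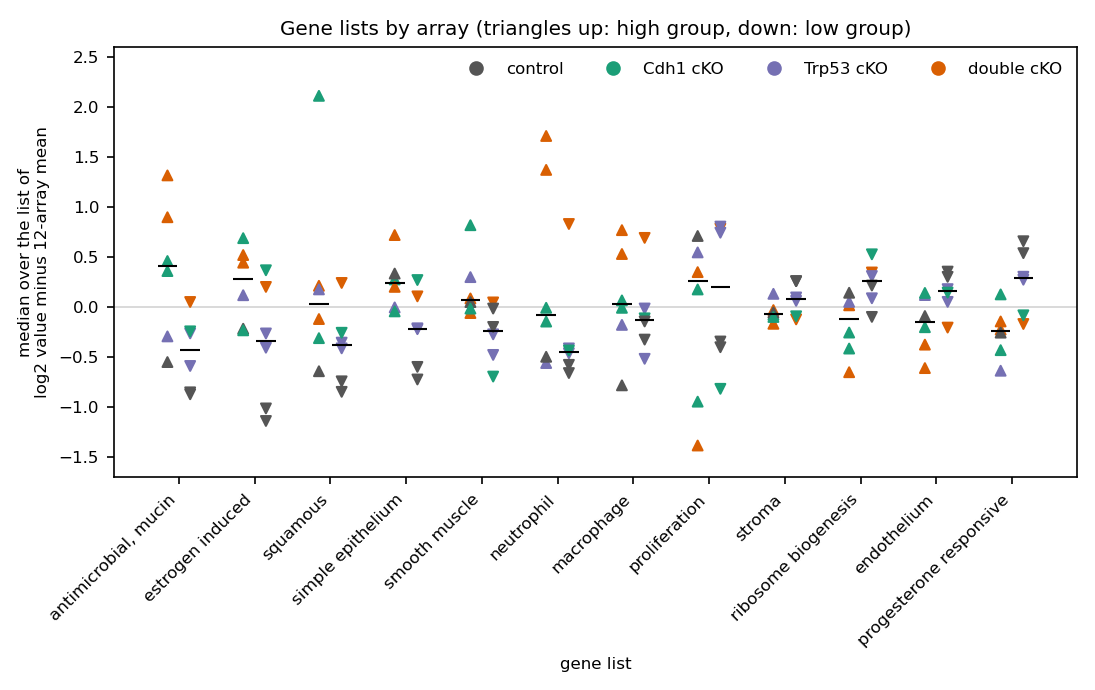
Median over the genes of a list of the log2 value minus the 12-array mean, for each array of the high group (triangles up) and low group (triangles down), coloured by genotype, with a bar at the median of each group. Every list shown overlaps between groups, and single arrays stand out, such as Cdh1 cKO replicate 3 at 2.11 for squamous genes and the double cKO arrays for neutrophil genes.

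Of 18 genes of antimicrobial secretion and mucins, 14 were above 0 with a median of 1.20 (1.13 with the gene not detected in 1 group at its bound, and 0.76 within genotypes, between the highest and lowest score of each), 10 differed by at least 1 (2.01% of all genes did), and 3, Lcn2, Muc4 and Muc20, had no overlap (0.443% of all genes, higher). Limma called 4 of the 18 for genotype, S100a8, S100a9, Lyz2 and Bpifb5, beside 1.25% of all genes. S100a8 (1.65) and S100a9 (1.54), which are also in the neutrophil list, were among the 10. The peptidoglycan-binding gene Pglyrp1 differed by 1.65, while Wfdc2, an abundant secreted protease inhibitor gene, differed by 0.07, the lysozyme gene Lyz2 by 0.12 and the lipopolysaccharide-binding gene Lbp by -1.18. Of 25 genes of the simple uterine epithelium, 22 were above 0 with a median of 0.45. Of these genes 1, Tjp3, had no overlap (0.443% of all genes, higher). The epithelial transcription factor gene Elf3 differed by 1.49, Krt7 by 1.32 and Krt8 by 0.45. The claudin gene Cldn3 differed by -0.07. Cdh1, the targeted gene, differed by 0.08 between groups that held 2 and 1 double cKO uteri, while the highest-scoring minus the lowest-scoring uterus of each genotype gave 0.62 on average, above 0 in 4 of 4. Of 12194 genes tested, 965 were above 0 in 4 of 4 in this way.

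Of 20 genes of squamous epithelium, 17 were above 0, with a median of 0.80. Of these genes 9 differed by at least 1 (2.01% of all genes did), and 1, Calml3, had no overlap (0.443% of all genes, higher). Without the boundary arrays the median was 1.03, and Sfn, S100a14 and Calml3 had no overlap (2.12% of all genes, higher). The array medians were 2.11 in Cdh1 cKO replicate 3 and -0.64 to 0.21 in the other 5 of the high group, against -0.85 to 0.24 in the low group. The keratin genes Krt14 and Krt13 were 13.79 and 10.10 in Cdh1 cKO replicate 3 and at most 8.18 and 5.47 in every other uterus. Krt17 was instead highest in double cKO, at 9.98, 11.80 and 11.72, beside 9.49 in Cdh1 cKO replicate 3 (limma adjusted p = 0.0147 over genotypes). Krt15, Lor and Sbsn differed by -0.07, -0.31 and -0.34 between the groups. Leaving out Cdh1 cKO replicate 3, the median of the squamous list was 0.32, and 15 and 4 genes had no overlap with a difference of at least 1, in place of 16 and 3.

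Genes of other cells moved with some of the arrays. Neutrophil genes had a median difference of 0.56, with 16 of 18 above 0 and 0 without overlap, and 9 of the 18 were called for genotype by limma, beside 1.25% of all genes. Their array medians were 1.37, 1.71 and 0.83 in the 3 double cKO uteri, of which 2 lay in the high group, and -0.66 to -0.01 in the other 9. S100a8, which encodes a subunit of calprotectin, was 12.24, 11.49 and 12.25 in double cKO (limma adjusted p = 0.00222 over genotypes), and 5.72 to 9.31 in the others. The difference of S100a8 between groups was 1.65 with overlap. With the 3 double cKO uteri left out, a choice made after seeing the data, 50 and 39 genes had no overlap with a difference of at least 1, and the median of the neutrophil list was 0.26. It was 0.35 without double cKO replicate 3 alone. The part of neutrophils in the level of Lcn2 and Ltf, which they also make, was not tested.

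Of 18 smooth muscle genes, 17 were above 0 with a median of 0.42 (0.24 without Cdh1 cKO replicate 3), and the array medians were -0.06 to 0.82 and -0.69 to 0.05. Without the boundary arrays the smooth muscle genes Tagln (1.14), Kcnmb1 (1.12) and Actg2 (1.10) had no overlap. Of all genes, 2.12% were higher in this way. Of 19 endothelial genes, 3 were above 0, with a median of -0.39. Without the boundary arrays Tek, a receptor of angiopoietins, Cldn5 and Egfl7 had no overlap, at -0.99, -0.87 and -0.49. Of all genes, 2.48% were lower in this way. Stromal genes had a median of -0.13, macrophage genes 0.08 and T, NK and B cell genes -0.12. Without the boundary arrays 4 of 21 stromal genes were lower without overlap, Hoxa10 and Hoxa11 among them, and 1 was higher. Over all genes these shares were 2.48% and 2.12%. The oviduct and ciliated cell list had a median of -0.03, with 1.12 in double cKO replicate 1, and the oviductal glycoprotein gene Ovgp1 was 13.19 in that uterus. The part of the tissue makeup in the differences was not tested.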

How the data were processed

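Per the file headers, the authors deposited the non-normalized intensity of each probe, its detection p-value and its number of beads. The bead standard errors were not used. They also deposited a matrix of log2 values of the same arrays, with no normalization method stated in the labels. The submitters' processing notes name limma 3.10.2. The matrix differed from neqc values computed here from the intensities (limma 3.58.1, R 4.3.3, offset 16) by at most 0.0234, and each column had a median of 4.72. The matrix log2 values were used, and neqc values were an alternative. The arrays have 1 colour, so ratios and dyes do not arise. The matrix was not centred on genes, and each gene was centred here on its 12-array mean for the score, the array medians of lists and the figures that say so.

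Probes were kept when detected (p below 0.05) on 3 or more of the 12 arrays, and the brightest probe with 1 symbol stood for a gene, which gave 12194 genes. Of 45281 probes, 34885 had 1 symbol, 18 several and 10378 none, and RefSeq (GRCm38.p6) held the gene of 99.8% of those with 1. A gene was called between the high and low group when the groups did not overlap and differed by at least 1. Genotypes were tested with limma (F over 3 coefficients, 8 residual degrees of freedom, prior 2.84), adjusted by the Benjamini-Hochberg method, with scripts tested on simulated data. P-values reflect only how these uteri vary, and the number of arrays limits the precision. Named genes are the score genes, the 12 largest rises and 12 largest falls without overlap between groups, and up to 4 members of each list. Other genes named, among them those of the 5 against 5 comparison and members that overlap, were chosen after their values were seen. Score genes, lists and rules were chosen with earlier results of these data known. Replicate numbers do not pair the samples: 3 of 18 same-number pairs of arrays had a correlation of deviations over 0.1 (range -0.648 to 0.332). Trp53 was not analysed here.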

Additional observations from a re-analysis of the deposited data

Results flagged for a closer look

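Within the high and the low group, the 5 score genes and the array medians of the 30 lists were examined for 1 array standing apart from the other 5. Of these 70 sets of 6 values, 5 held such an array, where chance flags about 1 in 20 sets. In the high group, Cdh1 cKO replicate 3 stood apart for squamous genes, at 2.112 against -0.6406 to 0.2132 in the others, and for uterine gland genes, at 0.7895 against -0.4668 to -0.06717. Double cKO replicate 1 stood apart there for oviduct and ciliated cell genes, at 1.125 against -0.3482 to 0.01567. In the low group, Cdh1 cKO replicate 1 stood apart for uterine gland genes, at 0.4957 against -0.2384 to -0.03765, and double cKO replicate 2 for neutrophil genes, at 0.8312 against -0.6587 to -0.4123. All are log2 values minus the 12-array mean, as medians over a list.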

How the results depend on the processing

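The counts of genes without overlap and with a difference of at least 1, 16 higher and 3 lower, stayed the same with neqc values, without Muc1 in the score, with score genes divided by their SD and with no detection filter. They were 48 and 46 when Ltf, Sprr2f or Greb1 left the score or all detected probes were averaged, and 25 and 15 without Padi1. In these settings 1 array changed places each way and 0 of the 16 and 3 genes were shared, which follows from the exchange. They were 155 and 117 for 4 against 4 arrays, 34 and 30 for 7 against 5, 90 and 68 for 5 against 5, and 50 and 39 without double cKO (the last 3 chosen after seeing the data). Within genotypes the rule was another and looser one, the same sign in all 4 differences of highest-scoring minus lowest-scoring uterus. With a mean difference of at least 1, it gave 193 and 75, which are not counts of groups without overlap. Leaving out 1 array at a time gave 14 to 46 higher and 3 to 32 lower. Counts moved by over 1.5 times when the array left out was control 3 (25 and 7), double cKO 2 (45 and 32), double cKO 3 (25 and 8), Trp53 cKO 2 (32 and 9), Cdh1 cKO 1 (46 and 18) or Cdh1 cKO 2 (44 and 15), and for lower genes double cKO 1 (5).

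Differences of single genes kept their direction wherever they were called. Leaving out arrays, or comparing within genotypes, cannot reverse a gene whose groups do not overlap, so in those settings this is no sign of stability. Over genes and settings, 21 values moved by at least the pooled SD within the score groups and 2085 did not. For list medians, by the same SD of the array medians, these were 15 and 765. This SD spans genotypes and most settings share most arrays, so values staying within it are a weak sign of stability. The antimicrobial median was 0.58 when the boundary arrays changed places.

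The genotype test called 153 genes with neqc values, 120 with no filter, 107 with the score group as a covariate and 54 to 202 leaving out 1 array, with 85, 87, 100, 77, 54 and 101 when the array left out was control 1, control 2, double cKO 1, double cKO 2, double cKO 3 or Trp53 cKO 1. With the replicate number as a block, which shares only a number and no pairing, 83 were called. Arrays of 1 colour give no depth, and values near 15 or near the background are compressed.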

Other observations

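Genes of ion and water transport across the epithelium, which set the volume of uterine fluid, went both ways. Of 24 such genes 15 were above 0 in the high group, where 46.1% of all genes tested were, with a median difference of 0.24 on the log2 scale against -0.02 over all genes. The median ran from 0.12 (without Cdh1 cKO replicate 3) to 0.36 (without Trp53 cKO replicate 2). Of these genes 5 differed by at least 1 and 1 by -1 or less, all with overlapping groups. The genes named in these paragraphs were chosen after their values were seen. The water channel gene Aqp4 differed by 2.00, the carbonic anhydrase gene Car2 by 1.23 and the chloride channel gene Cftr by 1.12. The chloride channel gene Ano1 differed by -1.24 with overlap. With the 2 boundary arrays set aside it was 5.57, 6.38, 6.51, 6.48 and 5.68 in the 5 highest uteri and 7.42, 7.70, 7.46, 8.16 and 7.74 in the 5 lowest, a difference of -1.58 with no overlap. Ano1 was the 1 such gene of the 24, where 2.48% of all genes were lower without overlap. Of 15 gland genes 5 were above 0, with a median of -0.08, which was 0.15 within genotypes, as the highest-scoring minus the lowest-scoring uterus of each. Among them Lgr5, a Wnt pathway receptor gene, differed by -1.39 and Lif, a cytokine gene needed for implantation in mice, by 0.49, both with overlap between the groups of 6.

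Interferon response genes had 25 of 27 members above 0 with a median of 0.29, and matrix remodelling genes 13 of 21 with a median of 0.36, none of them without overlap. Leaving out 1 array at a time, the interferon median ran from 0.10 (without double cKO replicate 1) to 0.45 (without control replicate 3) and the matrix remodelling median from 0.13 (without double cKO replicate 1) to 0.46. The matrix remodelling median turned to -0.10 within genotypes. Without the boundary arrays, the urokinase gene Plau was 10.55, 8.96, 9.20, 9.22 and 8.96 against 7.11, 7.45, 8.42, 7.15 and 7.597, a difference of 1.84. The metalloproteinase inhibitor gene Timp3 then differed by -0.69, also without overlap. The complement factor gene Cfb differed by 2.07 and the immediate early gene Ccn1 by 1.80 over the same arrays, both without overlap. Plau and Timp3 were the only such genes of 21 for matrix remodelling, Cfb of 14 for complement and Ccn1 of 17 immediate early genes. Of all genes, 2.12% were higher and 2.48% lower without overlap on these arrays. Collagen genes had a median of -0.14 over 21 genes, with Lox the 1 gene that had no overlap (0.443% of all genes, higher). The collagen median turned to 0.12 without the boundary arrays, 0.09 without Cdh1 cKO replicate 2 alone and 0.24 within genotypes. Genes of lipid synthesis had a median of 0.13, which was 0.38 without those arrays and 0.04 without control replicate 2. Genes of the unfolded protein response had a median of -0.03, which turned to 0.24.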
